A study of Homo sapiens with 16 samples.

Results

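The 10 genes described here carry glucose into the cell, trap it, turn pyruvate into lactate and back, move lactate across the membrane and handle the acid outside it. They were taken by symbol from the deposited count table, SLC2A1, SLC2A3, HK1, HK2, LDHA, LDHB, SLC16A1, SLC16A3, CA9 and CA12, 10 of the 63187 genes in it. The 16 RNA-seq libraries came from SK-N-BE(2), an established line of human neuroblastoma cells that carries extra copies of MYCN. The groups, 4 libraries each, were wild-type cells (WT) and cells given a form of HIF-2α by transfection, the oxygen-regulated transcription factor encoded by EPAS1: full length (FL), NCTAD or cIDR. The study's design marks NCTAD and cIDR with a delta sign, as ΔN-CTAD and Δc-IDR, and the sample labels do not, so both are called by their labels here. Transfection is the only treatment named; which residues define each form, which vector carried it, how long after transfection RNA was taken and what the WT cells were given is not stated in the sources used here, so in a comparison with WT the act of transfecting and the HIF-2α protein cannot be told apart. All 4 groups share the cell line, growth in 21% oxygen and 10% serum, and a batch structure in which replicate 1 of every group is batch 1, and so on to batch 4. Library names in the deposited tables call the line BE2c, the FL libraries WT and the WT libraries CTRL; the sample labels were followed.

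In most cells a glucose carrier of the SLC2A (GLUT) family lets glucose in, and a hexokinase phosphorylates it so that it cannot leave. When glycolysis outruns the mitochondria, lactate dehydrogenase reduces pyruvate to lactate, monocarboxylate transporters of the SLC16A (MCT) family carry lactate out together with a proton, and membrane carbonic anhydrases on the cell surface hydrate carbon dioxide and so help to set the pH outside. Many of these genes are textbook targets of hypoxia-inducible factors, CA9 above all, and neuroblastoma cells are known for a glycolytic metabolism.

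HIF dimers bind DNA at the core letters ACGTG or GCGTG, so the stretch around the start of transcription was read for these letters on both strands. RefSeq's table for GRCh38.p14, with 300 bases per start site (250 before and 50 after), held 20 windows for 8 of the 10 genes; SLC2A3 and SLC16A1 had none. Of the 20 windows, 13 held either motif, and each of the 8 genes had at least 1 such window. Over all 35116 windows in the table, 48.4% held either motif and 21.4% held ACGTG. These shares are per window. The share of all genes with at least 1 such window is not given here, and a gene with several windows has more places for a motif. The windows below are those of SLC2A1 and CA12, which had the largest shares of their variation between groups, of CA9, the best known HIF target of the list, and of HK2 and LDHA, which held the most motifs with 6 each; they were chosen after the values and the motif counts had been seen. Capitals mark each motif as it reads on the printed strand, so CACGT and CACGC are motifs of the opposite strand, and CACGTG is ACGTG on both strands and counts as 2 overlapping motifs.
CA9, chr9:35673678-35673977, plus strand: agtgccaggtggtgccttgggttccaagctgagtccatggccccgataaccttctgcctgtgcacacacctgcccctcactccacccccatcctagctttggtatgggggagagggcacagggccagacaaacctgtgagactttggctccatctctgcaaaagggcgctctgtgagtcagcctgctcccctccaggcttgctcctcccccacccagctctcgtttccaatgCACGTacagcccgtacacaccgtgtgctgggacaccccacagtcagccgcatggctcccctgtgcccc
SLC2A1, chr1:42958819-42959118, minus strand: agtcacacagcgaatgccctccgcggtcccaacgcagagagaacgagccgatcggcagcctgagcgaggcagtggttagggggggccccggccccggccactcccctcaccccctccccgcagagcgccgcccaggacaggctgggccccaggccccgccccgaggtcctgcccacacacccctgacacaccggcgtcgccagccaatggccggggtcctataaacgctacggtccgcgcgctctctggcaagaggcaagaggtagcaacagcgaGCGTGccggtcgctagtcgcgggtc
CA12, chr15:63381797-63382096, minus strand: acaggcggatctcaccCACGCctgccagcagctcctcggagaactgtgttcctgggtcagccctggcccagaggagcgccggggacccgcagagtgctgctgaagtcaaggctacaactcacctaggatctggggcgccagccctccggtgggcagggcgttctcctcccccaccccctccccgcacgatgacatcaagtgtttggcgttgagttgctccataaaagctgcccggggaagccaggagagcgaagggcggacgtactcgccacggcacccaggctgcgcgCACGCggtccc
HK2, chr2:74834920-74835219, plus strand: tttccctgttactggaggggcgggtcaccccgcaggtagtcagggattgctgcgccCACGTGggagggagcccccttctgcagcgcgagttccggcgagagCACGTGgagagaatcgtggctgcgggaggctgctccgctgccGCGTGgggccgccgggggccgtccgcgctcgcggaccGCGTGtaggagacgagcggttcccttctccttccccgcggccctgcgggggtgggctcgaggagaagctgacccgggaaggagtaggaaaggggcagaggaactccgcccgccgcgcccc
LDHA, chr11:18394313-18394612, plus strand: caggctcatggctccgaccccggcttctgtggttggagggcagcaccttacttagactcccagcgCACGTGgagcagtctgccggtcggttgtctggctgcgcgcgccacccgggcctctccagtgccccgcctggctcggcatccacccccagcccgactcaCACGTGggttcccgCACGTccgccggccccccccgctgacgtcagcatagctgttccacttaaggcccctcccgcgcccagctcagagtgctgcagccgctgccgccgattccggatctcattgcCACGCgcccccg
The CA9 window held 1 ACGTG, on the opposite strand, at bases 233 to 237 from its 5′ end. SLC2A1 held 1 GCGTG and CA12 held 2, at bases 17 to 21 and 290 to 294. The 6 motifs of LDHA and of HK2 put these windows among the 1.98% of all windows with at least 5. A match of letters describes the window and does not show that HIF-2α binds there.

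Libraries held 38.6 to 56.1 M (mega) counts each, and 19530 genes passed the filter on low counts and were tested, all 10 genes among them. CA9 exceeded the filter's 0.212 CPM in 7 libraries, the 4 of batch 2 and 3 others, and CA12 in 14; both also passed the filter when batch 2 was left out. CPM are counts per M of a library's counts, scaled by TMM. EPAS1, the gene of the transfected protein, was at 18.2 ± 6.89 CPM in WT (mean ± SD, n = 4), and at 2609 ± 906, 2851 ± 1330 and 4484 ± 1740 CPM in FL, NCTAD and cIDR, with no overlap with WT; endogenous and transfected reads are counted together. All 11 adrenergic neuroblastoma markers averaged at least 1 TPM, with MYCN at 1980 TPM and TH lowest at 3.96 TPM. Of 7 fibroblast and mesenchymal markers, 3 (DCN, LUM and PDGFRB) did so, and COL1A2 was at 0.0085 TPM. Markers of the other cell types were low: the summed TPM over 4 immune, 3 endothelial, 4 Schwann cell and 4 epithelial genes reached at most 2.15, 0.556, 8.50 and 3.30 in any library. The FL library of batch 4 stood apart in the share of counts from mitochondrially encoded genes, 2.55% against 6.20% to 10.3% in the other 15. Batch 2 stood apart over the whole transcriptome: 27.7% of tested genes were higher and 26.1% lower there than in the mean of batches 1, 3 and 4 by edgeR's quasi-likelihood test with the group in the model. In bulk RNA, fewer cells expressing a gene and less RNA of it per cell cannot be told apart, and p-values measure the spread between these libraries, since nothing in the labels says how separate the cultures were.

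Length-corrected levels (TPM, transcripts per M) show which member of each pair had more RNA in these cells. They do not measure protein, transport or enzyme activity. LDHB, the lactate dehydrogenase subunit that favours turning lactate into pyruvate, had by far the highest level, 1713 TPM on average over the 16 libraries (1525 to 1998), rank 84 among all genes. LDHA, the subunit that favours making lactate, was at 22.3 TPM (19.6 to 28.4). HK1, the housekeeping hexokinase, was at 106 TPM (94.5 to 126) and HK2, the inducible one, at 12.03 (7.09 to 26.7). Among the carriers, SLC16A1 (MCT1), which moves lactate either way, was at 98.9 TPM (78.1 to 130) and SLC2A1 (GLUT1), the basal glucose carrier, at 71.9 (42.0 to 101). SLC2A3 (GLUT3), the high-affinity glucose carrier of neurons, averaged 3.52 TPM (1.54 to 8.11). SLC16A3 (MCT4), the lactate exporter of glycolytic cells, averaged 0.777 TPM (0.239 to 2.55), and the surface carbonic anhydrases CA12 and CA9 averaged 0.682 (0.0114 to 2.81) and 0.375 (0.129 to 0.979). In that order LDHB stood clear of HK1, and SLC2A1 stood clear of LDHA; all other neighbours overlapped in range over the libraries. The rarest 3 rested on few counts, 3 to 42 per library for CA9, 2 to 323 for CA12 and 19 to 180 for SLC16A3, so their counting error is large.

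**Figure D1:**
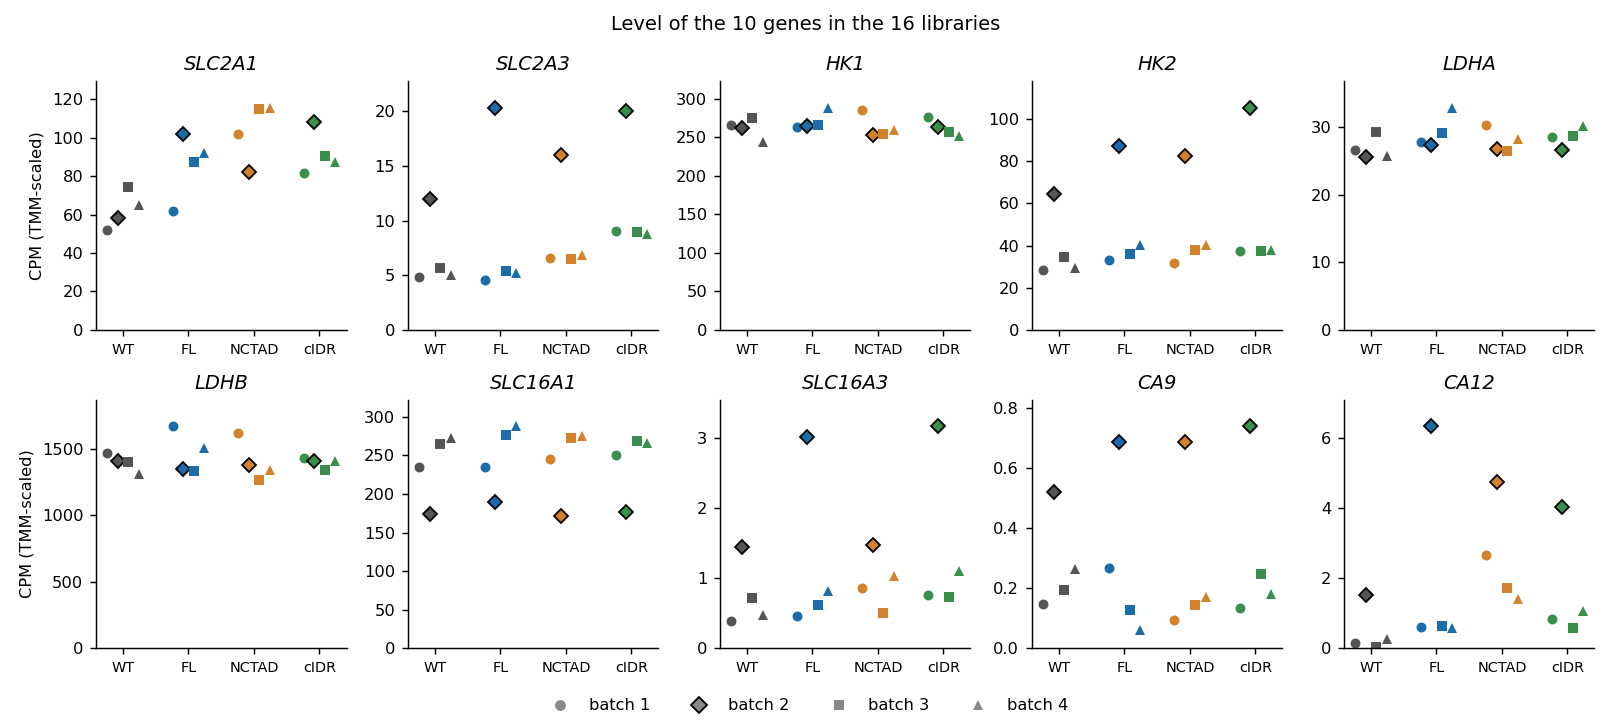
CPM (vertical axis, TMM-scaled, from 0) of each gene in the 16 libraries by group, 1 symbol shape per batch, with batch 2 as outlined diamonds. SLC2A3, HK2, SLC16A3 and CA9 have their 4 highest libraries in batch 2, SLC16A1 its 4 lowest, and SLC2A1 is lower in WT than in each construct in every batch.

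SLC2A1 was the gene that followed the groups rather than the batches. In batches 1 to 4 it stood at 52.0, 58.3, 74.6 and 64.8 CPM in WT, and at 61.9, 102, 87.3 and 92.1 CPM in FL. NCTAD libraries had 102, 82.4, 115 and 116 CPM and cIDR libraries 81.6, 108, 90.4 and 87.2 CPM. In CPM, every construct library was above the WT library of its batch, and the ranges of NCTAD and of cIDR did not overlap with that of WT. In TPM, the FL library of batch 1 was below the WT library of that batch, 42.0 against 48.9. With group as the only term, the log2 fold change against WT was 0.73 ± 0.16 for NCTAD (± SE), with an adjusted p of 0.367 by edgeR's quasi-likelihood test, not called. With the batch as a block it was 0.74 ± 0.13, 1.67-fold, with an adjusted p of 0.0129, and SLC2A1 rose. The blocked fit gave 0.57 ± 0.13 for cIDR (adjusted p = 0.0787) and 0.46 ± 0.13 for FL (adjusted p = 0.495), neither called by edgeR. The NCTAD call did not hold when any of WT replicates 1, 2 and 4 or NCTAD replicates 1, 3 and 4 was left out (adjusted p up to 0.0838), nor without batch 1, 3 or 4 (up to 0.184), and it held without batch 2 (0.79 ± 0.089, adjusted p = 0.00209).

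SLC2A3 was highest in batch 2 in every group and, in the other batches, highest in cIDR. WT libraries of batches 1 to 4 had 4.86, 11.95, 5.67 and 5.05 CPM and FL libraries had 4.59, 20.3, 5.35 and 5.22 CPM. NCTAD libraries had 6.62, 15.97, 6.50 and 6.88 CPM, and cIDR libraries 9.01, 19.998, 8.92 and 8.76 CPM. Outside batch 2 the cIDR libraries were thus above every other library, whereas in batch 2 cIDR and FL were level. The cIDR libraries exceeded WT in 4 of 4 batches, by 0.65 to 0.88 on the log2 CPM scale. The fold change was 0.76 ± 0.49 with group alone (edgeR adjusted p = 1.00) and 0.77 ± 0.14, 1.71-fold, with the block (adjusted p = 0.0175), so SLC2A3 rose in the blocked fit. That call did not hold without any 1 of the WT replicates or of cIDR replicates 1, 3 and 4 (adjusted p up to 0.136), or without batch 1, 3 or 4 (up to 0.168). Without batch 2 it held in both fits, at 0.77 ± 0.11 with group alone (adjusted p = 0.00947, where 0.173% of all genes were called) and 0.77 ± 0.10 with the block (adjusted p = 0.00835). In NCTAD the blocked fold change was 0.38 ± 0.14 (adjusted p = 0.616), also higher in 4 of 4 batches but not called. Counts of SLC2A3 and its near-identical neighbour SLC2A14 can be split wrongly; SLC2A14 had 0 to 17 counts per library against 189 to 1136 for SLC2A3.

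Of the hexokinases, HK1 stayed within a narrow range and HK2 did not. HK1 stood at 266, 262, 275 and 244 CPM in WT, 263, 265, 266 and 289 in FL, 286, 254, 254 and 259 in NCTAD, and 276, 263, 257 and 252 in cIDR, batches 1 to 4 in order, so all 4 groups overlapped. Its highest value was that of the FL library of batch 4, the 1 with the low mitochondrial share; whether the 2 are linked was not tested. HK2 stood at 28.3, 64.7, 34.5 and 29.5 CPM in WT and at 33.4, 87.1, 35.9 and 40.5 in FL. NCTAD libraries had 31.9, 82.6, 37.8 and 40.3 CPM, and cIDR libraries 37.2, 105, 37.4 and 37.8 CPM. In CPM, WT was the lowest of the 4 groups in each batch, and in each group batch 2 was the highest of the 4 batches. In TPM, the NCTAD library of batch 1 was below the WT library of that batch, 7.09 against 7.28. Blocked log2 fold changes of HK2 against WT were 0.40 ± 0.081 for cIDR (adjusted p = 0.0419, called by edgeR), 0.30 ± 0.081 for FL (adjusted p = 0.476) and 0.28 ± 0.081 for NCTAD (adjusted p = 0.313). The cIDR rise was 0.47 ± 0.42 with group alone (adjusted p = 1.00). It kept its call in 4 of the 16 fits without 1 library, among the WT and cIDR libraries only without WT replicate 3 or cIDR replicate 4. It kept it in none of the 4 fits without a batch, and without batch 2 it was 0.28 (adjusted p = 0.653). The pseudogene HK2P1 had 7 to 74 counts, highest in batch 2 (47 to 74), against 1343 to 5987 for HK2, and reads that both could take may be split wrongly.

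Neither lactate dehydrogenase subunit passed the test in any comparison of groups. LDHA stood at 26.6, 25.6, 29.3 and 25.7 CPM in WT, 27.7, 27.4, 29.2 and 32.9 in FL, 30.3, 26.8, 26.5 and 28.3 in NCTAD, and 28.5, 26.6, 28.7 and 30.2 in cIDR. Its highest library was again FL of batch 4. LDHB stood at 1472, 1413, 1400 and 1312 CPM in WT, 1671, 1352, 1333 and 1511 in FL, 1622, 1379, 1267 and 1341 in NCTAD, and 1429, 1410, 1341 and 1407 in cIDR. For both, the 4 groups overlapped. SLC16A1 was as even between groups: 235, 174, 265 and 272 CPM in WT, 234, 190, 277 and 288 in FL, 246, 172, 272 and 275 in NCTAD, and 250, 177, 269 and 266 in cIDR, with its lowest library in batch 2 in each group. In TPM, the lowest FL library of SLC16A1 was that of batch 1, at 81.1 against 90.7 in batch 2. Over the 6 comparisons of groups, the 95% intervals of the blocked log2 fold changes of HK1, LDHA, LDHB and SLC16A1 lay between −0.20 and 0.27, both bounds set by LDHA. Pseudogene rows could share reads with both dehydrogenases, LDHBP2 with 108 to 409 counts against at least 52792 for LDHB, and LDHAP4 with up to 54 against at least 1054 for LDHA.

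SLC16A3, the lactate exporter, was at 0.397, 1.45, 0.724 and 0.483 CPM in WT, 0.461, 3.02, 0.623 and 0.816 in FL, 0.859, 1.47, 0.507 and 1.03 in NCTAD, and 0.758, 3.17, 0.726 and 1.11 in cIDR. In CPM, only cIDR exceeded WT in 4 of 4 batches, by 0.81 ± 0.29 in the blocked fit (edgeR adjusted p = 0.657, not called). In batch 3 the libraries of both groups were level in CPM, on 35 and 30 counts. In TPM, cIDR was below WT in batch 3, 0.427 against 0.724.

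CA12 had the widest range between groups. WT libraries of batches 1 to 4 had 0.146, 1.53, 0.0483 and 0.263 CPM, the 0.0483 being 2 counts, fewer than the 3 counts that a count of 0 allows. FL libraries had 0.607, 6.33, 0.645 and 0.578 CPM, NCTAD libraries 2.65, 4.75, 1.72 and 1.42 CPM, and cIDR libraries 0.839, 4.01, 0.581 and 1.06 CPM. Every construct library was above the WT library of its batch, and NCTAD was the highest group in batches 1, 3 and 4 and FL in batch 2. The ranges of whole groups overlapped, since WT in batch 2 exceeded most construct libraries of the other batches. Against WT the blocked log2 fold change was 3.00 ± 0.42 for NCTAD (adjusted p = 0.00298 by edgeR), and CA12 rose, 7.99-fold; with group alone it was 2.37 ± 0.99 (adjusted p = 1.00), and from 1.92 without NCTAD replicate 2 to 4.07 without WT replicate 2. For FL it was 1.93 ± 0.42 (adjusted p = 0.156) and for cIDR 1.95 ± 0.42 (adjusted p = 0.0694), not called by edgeR; DESeq2 with the block called both (adjusted p = 0.00228 and 0.000434). The NCTAD call held in all 16 fits without 1 library and in those without batch 2 or batch 4, and not without batch 1 (2.58, adjusted p = 0.0703) or batch 3 (2.67, adjusted p = 0.0615). Without batch 2 it was also called with group alone, at 3.60 ± 0.44 (adjusted p = 0.00260, where 0.204% of all genes were called).

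CA9 was near the limit of what these libraries can count. It stood at 0.146, 0.521, 0.193 and 0.263 CPM in WT, 0.267, 0.685, 0.129 and 0.0597 in FL, 0.0929, 0.687, 0.145 and 0.172 in NCTAD, and 0.135, 0.739, 0.249 and 0.181 in cIDR. The 0.0597 CPM of FL in batch 4 was 3 counts. No construct was above WT in all 4 batches, and the blocked fold changes against WT ran from −0.23 ± 0.42 to 0.10 ± 0.42. Neither fit called CA9 between groups, and the 95% interval of the blocked log2 fold change for FL against WT was −1.06 to 0.75.

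**Figure D2:**
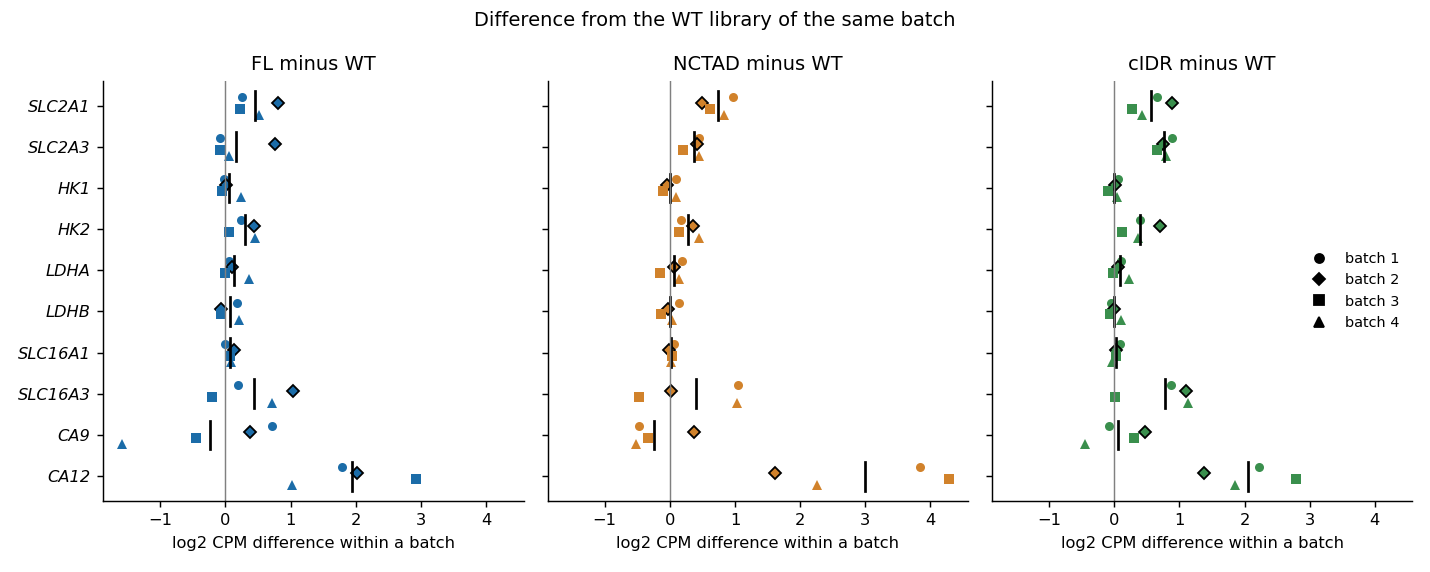
Difference in log2 CPM (horizontal axis, prior count 2) between each construct library and the WT library of its batch, 1 symbol per batch, with a black bar at the mean of 4. All 4 symbols lie above 0 in each panel for SLC2A1, HK2 and CA12, and for SLC2A3 in NCTAD and cIDR; CA9, CA12 and SLC16A3, the genes with the fewest counts, have the 3 widest spreads in each panel.

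Counted together, none of the 10 genes passed edgeR's test with group alone in any of the 6 comparisons. Against WT, 1 gene for FL, 2 for NCTAD and 1 for cIDR had an unadjusted p under 0.05 in edgeR, beside 1.14%, 1.42% and 1.37% of all tested genes, of which 0.0102%, 0.0256% and 0.0102% were called. DESeq2 with group alone called 0, 1 (SLC2A1) and 0, beside 0.0565%, 0.0874% and 0.0411% of all genes, and limma on TPM called 0 in each, beside 0.00512% to 0.0154%. With the batch as a block, edgeR called 0 of 10 in FL (3 at an unadjusted p under 0.05, beside 5.11% of all genes), 2 in NCTAD (SLC2A1 and CA12) and 2 in cIDR (SLC2A3 and HK2), all higher, against 0.102%, 0.456% and 0.486% of all genes. The median log2 fold change of the 10 genes was 0.17, 0.17 and 0.25 in the blocked fits, against 0.011, 0.016 and 0.0079 over all tested genes. The 3 comparisons share their WT libraries. DESeq2 with the block called 1 (CA12), 2 (SLC2A1 and CA12) and 4 (SLC2A1, SLC2A3, HK2 and CA12) of the 10, beside 0.297%, 0.86% and 0.799% of all genes. None of these counts shows that the constructs differ from each other.

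Set against each other over all 16 libraries, the constructs differed in none of the 10 genes by edgeR, and in 1 by DESeq2 with the block. For NCTAD against FL, cIDR against FL and cIDR against NCTAD, edgeR with group alone called 0% of all genes, and 0 members had an unadjusted p under 0.05, beside 0.886%, 0.906% and 0.609% of all genes. With the block it called 0%, 0.0307% and 0.00512% of all genes and no member, with 2, 1 and 2 members at an unadjusted p under 0.05, beside 3.69%, 3.68% and 2.15% of all genes. DESeq2 with the block called 0, 1 (SLC2A3, 0.57 ± 0.15, adjusted p = 0.0477) and 0, beside 0.0614%, 0.236% and 0.108% of all genes. Blocked fold changes of cIDR against NCTAD were 0.39 ± 0.14 for SLC2A3, higher in 4 of 4 batches, and −1.04 ± 0.37 for CA12, lower in 4 of 4, with an edgeR adjusted p of 1.00 for both. The 95% intervals were 0.11 to 0.68 for SLC2A3 and −1.83 to −0.26 for CA12. When batch 2 was left out, SLC2A3 was called in cIDR against FL, at 0.83 ± 0.11 (adjusted p = 0.0202 with group alone, where 0.0262% of all genes were called, and 0.0251 with the block, where 0.0524% were); it is named because it was the only member called there, after its values had been seen. With batch 2 included, the blocked value was 0.56 ± 0.14 (adjusted p = 0.472).

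Batch 2 was compared with the mean of batches 1, 3 and 4 over the 4 groups, with the group in the model; it is a single batch of 4 libraries, so the libraries within it are not 4 independent batches. Of the 10 genes, 5 were higher in batch 2 and 1 was lower, against 27.7% and 26.1% of all tested genes. The 5 higher genes were also at least 2-fold higher, which 7.36% of tested genes were. The median log2 difference of the 10 was 0.65, and that of all tested genes was 0.035. The other 4 genes, SLC2A1, HK1, LDHA and LDHB, were not called.

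On the uptake side, SLC2A3 was 2.69-fold higher in batch 2, 17.1 ± 3.94 CPM (SD, n = 4) against 6.45 ± 1.64 (n = 12), a log2 difference of 1.43 ± 0.10 (edgeR adjusted p = 3.66e-08). SLC2A1 was at 87.8 ± 22.5 against 85.3 ± 19.9 CPM, a difference of 0.055 ± 0.10 (adjusted p = 0.678). The pair thus differed in whether batch 2 stood apart: SLC2A3 had its 4 highest libraries there and SLC2A1 overlapped. HK2 was 2.38-fold higher, 85.0 ± 16.7 against 35.4 ± 3.95 CPM, with 1.25 ± 0.061 on the log2 scale (adjusted p = 5.75e-10), and the 2 sets did not overlap. HK1 was at 261 ± 5.17 against 265 ± 13.7 CPM (−0.023 ± 0.044, adjusted p = 0.679).

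On the lactate side the transporters moved in opposite directions. SLC16A3, the exporter, was 3.18-fold higher in batch 2, 2.28 ± 0.943 against 0.708 ± 0.225 CPM (1.67 ± 0.21, edgeR adjusted p = 1.08e-05). SLC16A1 was lower, 178 ± 8.15 against 262 ± 17.1 CPM (−0.56 ± 0.038, adjusted p = 1.88e-08). For both, batch 2 did not overlap with the other batches in CPM. In TPM, SLC16A1 overlapped, 78.1 to 90.7 in batch 2 against 81.1 to 130 in the others. LDHA was at 26.6 ± 0.734 against 28.7 ± 1.96 CPM, −0.11 ± 0.053 (adjusted p = 0.104), lower in all 4 groups; without WT replicate 4 or without FL replicate 1 it was called, at −0.13 and −0.11 (adjusted p = 0.0435 and 0.0451). LDHB was at 1389 ± 28.7 against 1426 ± 124 CPM (−0.034 ± 0.049, adjusted p = 0.584).

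The surface carbonic anhydrases, which act outside the cell, had the largest log2 differences of the 10 in edgeR's fit of all 16 libraries. With a library or batch left out, CA9 ran from 1.84 to 2.15 and SLC16A3 from 1.44 to 1.89, so the order of these 2 is not firm. CA12 was 5.94-fold higher in batch 2, 4.15 ± 2.00 against 0.880 ± 0.743 CPM (2.57 ± 0.28, edgeR adjusted p = 2.30e-06); the sets overlapped because WT in batch 2, at 1.53 CPM, lay within the range of the NCTAD libraries of other batches. CA9 was 3.89-fold higher, 0.658 ± 0.0947 against 0.169 ± 0.0655 CPM (1.96 ± 0.30, adjusted p = 5.69e-05), without overlap. In counts that is 28 to 42 per library in batch 2 and 3 to 12 in the others.

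**Figure D3:**
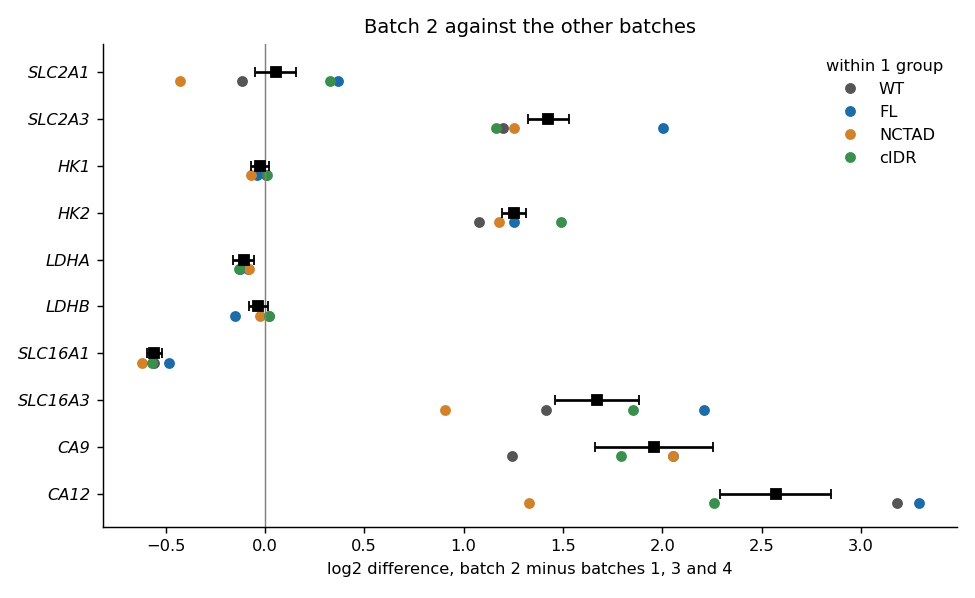
Log2 difference between batch 2 and the mean of batches 1, 3 and 4 (horizontal axis), as black squares with SE from the model over all groups and as coloured circles within each group. The squares of SLC2A3, HK2, SLC16A3, CA9 and CA12 lie between 1.25 and 2.57, SLC16A1 lies at −0.56, and only SLC2A1, HK1 and LDHB have groups on both sides of 0.

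The difference of batch 2 had the same sign in all 4 groups for SLC2A3, HK2, LDHA, SLC16A1, SLC16A3, CA9 and CA12. For SLC2A3 it ran from 1.16 in cIDR to 2.00 in FL, for HK2 from 1.08 in WT to 1.49 in cIDR, and for SLC16A1 from −0.62 in NCTAD to −0.48 in FL. CA12 differed most between groups, from 1.33 in NCTAD to 3.29 in FL. Whether the effect of the constructs differed in batch 2 was tested with an interaction term: 0 of 10 genes were called by edgeR (0.00512% of all genes), 0 had an unadjusted p under 0.05 (1.56% of all genes) and DESeq2 called 0 (0.0666% of all genes), with estimates from −0.92 ± 0.74 for CA12 to 0.78 ± 0.72 for CA9.

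Other values moved with batch 2. Genes detected numbered 27145 to 27325 in its libraries and 24662 to 26388 in the others, without overlap. The summed TPM of the 7 fibroblast and mesenchymal markers was 107 to 112 in batch 2 and 45.8 to 61.0 in the other batches, without overlap. Over all libraries PDGFRB, LUM and DCN averaged 26.7, 26.4 and 12.9 TPM, and COL1A2 reached at most 0.125 TPM. Which of these genes rose in batch 2 is not given here. The summed TPM of the 4 epithelial markers was 2.12 to 3.30 against 0.871 to 1.48, of the 4 Schwann cell markers 6.60 to 8.50 against 3.98 to 6.79, of the 3 endothelial markers 0.272 to 0.556 against 0.0244 to 0.275, and of the 11 neuroblastoma markers 5907 to 6295 against 6008 to 6941. That of the 4 immune markers was 1.49 to 2.15 against 1.08 to 1.98. All of these sums but the epithelial one overlapped between batch 2 and the others. The part of these values in the results on batch 2 was not tested. By group, the sums of the fibroblast list overlapped. All 20 genes of a reference list of hypoxia-induced genes outside the 10 (VEGFA, BNIP3, NDRG1 and others) were higher in batch 2, with a median log2 difference of 1.27, beside 27.7% of all tested genes higher and a median of 0.035; the list was chosen with earlier results of these data known and is no independent evidence. The labels give the same culture oxygen for every batch and say nothing of density, medium change or other handling, so no handling can be tied to batch 2.

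The share of each gene's variation in log2 CPM that lay between batches or between groups sorts the 10 genes. Batch held 97.3% of the sum of squares for SLC16A1, 90.8% for HK2, 78.8% for CA9, 77.6% for SLC2A3 and 74.1% for SLC16A3, with group at 0.885%, 6.54%, 2.43%, 17.2% and 11.1%. CA12 was divided evenly, 46.8% by batch and 45.0% by group. SLC2A1 was the 1 gene with most of its variation between groups, 63.0% against 14.4% between batches. LDHB had 57.5% between batches and 35.2% in neither. HK1 had 72.3% and LDHA 49.7% in neither.

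**Figure D4:**
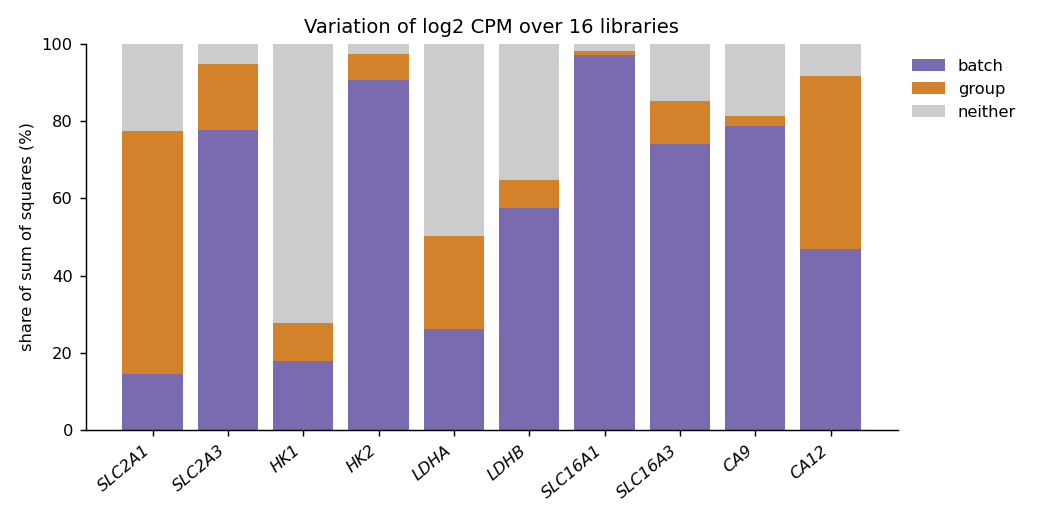
Share of the sum of squares of log2 CPM over 16 libraries (vertical axis, percent) that lies between the 4 batches, between the 4 groups, or in neither, for each gene. Batch takes 97.3% for SLC16A1 and 14.4% for SLC2A1, and group takes 63.0% for SLC2A1 and 45.0% for CA12.

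Within a library, ratios of TPM show how the balance of each pair shifted. HK2 amounted to 15.4% to 24.8% of HK1 in batch 2 and to 6.66% to 9.72% in the other batches. SLC2A3 amounted to 8.42% to 9.33% of SLC2A1 against 2.54% to 5.29%, and SLC16A3 to 1.06% to 2.81% of SLC16A1 against 0.239% to 0.722%. For these 3 pairs the sets did not overlap. LDHA amounted to 1.22% to 1.31% of LDHB in batch 2, within the 1.08% to 1.44% of the other batches. A ratio shows unequal levels and not which of the pair changed.

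**Figure D5:**
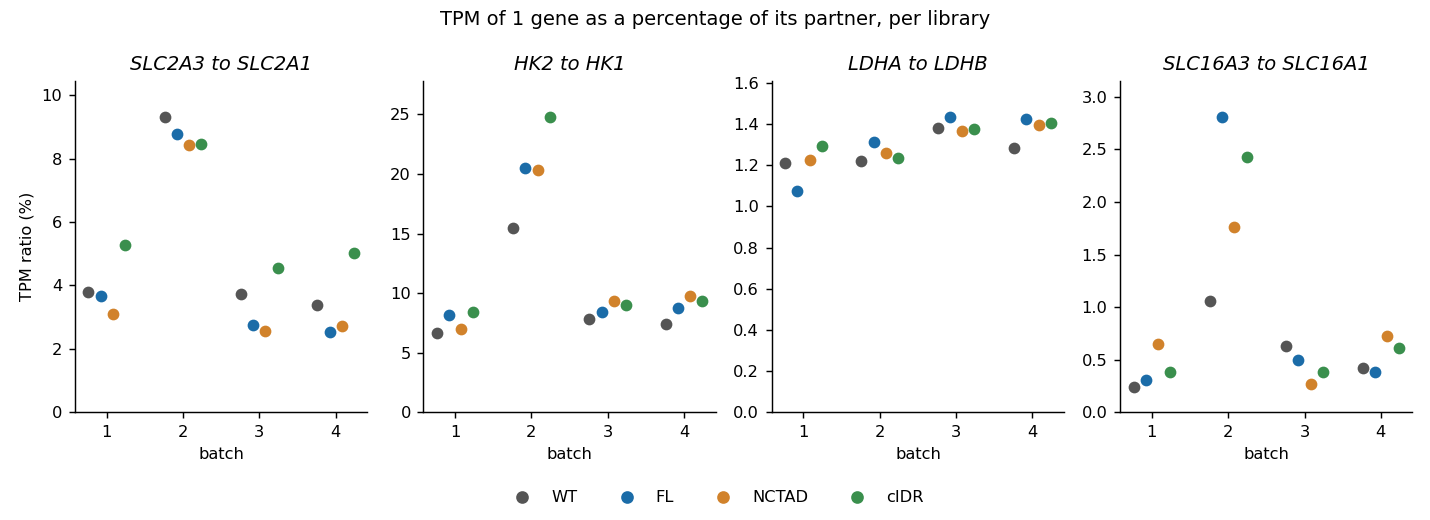
TPM of the first gene of each pair as a percentage of the second (vertical axis, from 0) in each library, by batch (horizontal axis) and coloured by group. Batch 2 lies above all other libraries for 3 pairs, and LDHA to LDHB stays between 1.08% and 1.44%; outside batch 2 the highest SLC2A3 to SLC2A1 ratios are those of cIDR.

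The rest of the pathway, 67 genes on 5 lists, had 36 tested members. In batch 2, 12 of them were higher, 11 lower and 13 not called, with a median log2 difference of 0.030 beside 0.035 for all tested genes; of all tested genes, 27.7% were higher and 26.1% lower, so these counts are near that background. Of 6 other hexose transporters, SLC2A12 (2.24) and SLC2A4 (1.00), the insulin-responsive carrier, were higher, and SLC2A6 (−0.40) and SLC2A8 (−0.59) lower. Of 6 genes of hexose phosphorylation and uptake control, 3 were higher and 3 lower, among them TXNIP (1.13) and ARRDC4 (0.67), arrestins that take glucose carriers off the membrane, and G6PC3 (−0.60), a glucose-6-phosphatase subunit. Of 8 lactate and monocarboxylate genes, 3 were higher and 3 lower, with PDK1, which holds pyruvate back from the mitochondria, at 2.81, LDHD at 1.22, LDHAL6A at 0.57 and SLC16A7 (MCT2) at −0.55. Of 3 other carbonic anhydrases, CA11 (0.49) was higher and CA10 (−0.68) lower. Of 13 proton and bicarbonate carriers, 3 were higher and 2 lower, led by SLC4A8 (−0.82), SLC9A9 (1.79), SLC4A3 (0.65) and SLC9A5 (1.26).

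Between groups the pathway lists held a single call. With the block, PDK1 rose in cIDR against WT (0.64 ± 0.12, edgeR adjusted p = 0.0279), where 0.486% of all genes were called, and the other 35 tested genes were not called. None of the 36 was called in FL or NCTAD against WT or between constructs. Against WT, 0 and 3 of them had an unadjusted p under 0.05, beside 5.11% and 5.96% of all genes. Between constructs 1 to 2 did, beside 2.15% to 3.69% of all genes. With group alone none was called in any of the 6 comparisons, and none had an unadjusted p under 0.05. Of the 20 reference hypoxia genes, edgeR with group alone called 0 in each of the 6 comparisons. Against WT, 2 for FL, 2 for NCTAD and 3 for cIDR had an unadjusted p under 0.05, beside 1.14%, 1.42% and 1.37% of all genes. The blocked fits called 1 in FL, 6 in NCTAD and 9 in cIDR against WT, all higher, beside 0.102%, 0.456% and 0.486% of all genes. They called 1 in cIDR against FL (0.0307% of all genes) and 0 in the other comparisons of constructs.

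Among 12374 tested genes with a symbol and a mean log2 CPM of at least 1, those most like SLC2A1 over the 16 libraries were DSE (Pearson r = 0.907), TMEM62 (0.906) and SOX7 (0.868). After each batch mean was subtracted they were EGLN3 (0.962), which encodes a HIF prolyl hydroxylase, DNM2 (0.959) and DLK1 (0.950). The genes most like CA9 were DOC2A (0.952), CACNB3 (0.945) and OGDHL (0.944), and those most like SLC16A3 were TGFB1 (0.950), C1QTNF6 (0.940) and SYNGR2 (0.938). These are correlations over libraries that share batches and depth, picked as the highest of many, and are given as a description.

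By the RefSeq annotation of GRCh38.p14, the 10 genes are scattered over the genome. The glucose carriers are SLC2A1 at chr1:42925353-42958868 and SLC2A3 at chr12:7919230-7936187. The hexokinases are HK1 at chr10:69270000-69401882 and HK2 at chr2:74834127-74893359. LDHA lies at chr11:18394563-18408425 and LDHB at chr12:21635342-21657842. The monocarboxylate transporters are SLC16A1 at chr1:112911847-112956196 and SLC16A3 at chr17:82217934-82240086, and the carbonic anhydrases are CA9 at chr9:35673928-35681159 and CA12 at chr15:63321378-63381846. Counts are per whole gene, so they do not tell transcripts of 1 gene apart.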

How the data were processed

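RNA-seq libraries were made from 16 samples by poly(A) selection with a stranded kit, 250 ng of RNA and 13 PCR cycles, per the labels. The authors deposited estimated counts per gene and TPM values per gene, both from Salmon per the table names, unscaled counts in the first and length- and depth-scaled values in the second. The submitters' processing notes name GRCh38, fastp, STAR, Salmon and featureCounts; versions and the annotation release are not given in the sources used here.

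The estimated counts were rounded to whole numbers (15.5% had a fractional part). Genes were filtered with filterByExpr by group. The quasi-likelihood test of edgeR 4.0.16 (R 4.3.3, TMM, group as the only term, 16 libraries in 1 model) was run over 19530 genes, with Benjamini-Hochberg adjusted p under 0.05 as a call. The SE is the log2 fold change over the square root of F; log2 CPM used a prior count of 2. Batch 2 was set against the mean of the other batches with group and batch as terms, and an interaction term tested the constructs in batch 2. Scripts were tested on simulated data.

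The labels give the replicate number also as a batch, so same-numbered libraries are paired: their deviations from the group mean correlated with a mean r of 0.308 (0.0674 to 0.712), against −0.0945 between different numbers. The fit with this replicate block is an alternative, printed wherever it changed a call (biological coefficient of variation 0.108, against 0.245 without it). No library was a copy of another (chi-square per degree of freedom at least 7.24 within groups). Totals of 38.6 to 56.1 M (mega) counts make 3 counts, the most that a count of 0 allows, 0.0528 to 0.0812 TMM-scaled CPM; this covers counting error only.

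The members, the 5 pathway lists, the hypoxia reference list and the marker lists were chosen with earlier results of these data known. All 10 members were named; a log2 fold change between groups was given for members called in either fit, or with the same direction in 4 of 4 batches and an unadjusted p under 0.05 in the blocked fit; values given outside this rule were chosen after they were seen, among them those of CA9 against WT, of SLC2A3 in cIDR against FL, the range over HK1, LDHA, LDHB and SLC16A1, and those whose sign turned without batch 2. Other pathway genes were named only if called, at most 4 a list (1 gene that met this rule is not reported here), and the 3 most correlated genes were named for SLC2A1, CA9 and SLC16A3. Alternatives were median-of-ratios size factors, tests without a low-count filter or with a minimum of 10 counts in each library, DESeq2 1.42.0, limma 3.58.1 on log2(TPM + 1) and log2(TPM + 0.1), only the 8 libraries compared, batch 2 without the group in the model, and each library or batch left out. Promoter sequences and gene positions are RefSeq's for GRCh38.p14. Figures used matplotlib 3.10.9 in Python 3.11.15.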

Additional observations from a re-analysis of the deposited data

Results flagged for a closer look

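In each of the 4 groups the highest and the lowest library were set against the other 3 for each gene (Dixon's criterion on the CPM), 40 groups in all. Chance flags about 1 in 20 such groups, but these 40 share the same 4 batches and are not independent. Here 15 of 40 had a library far from the others, 14 of them the library of batch 2 and always on the high side; over all tested genes 9.49% of such groups had one, and in 4.88% it was the library of batch 2 on the high side. For SLC2A3 these were WT at 11.95, FL at 20.3, NCTAD at 15.97 and cIDR at 19.998 CPM, and for HK2 64.7, 87.1, 82.6 and 105 CPM in the same order. SLC16A3 stood apart in FL at 3.02 and in cIDR at 3.17 CPM, and CA9 in NCTAD at 0.687 CPM. CA12 stood apart in WT at 1.53, in FL at 6.33 and in cIDR at 4.01 CPM. The remaining 1 was HK1 in FL of batch 4, at 289 CPM, the library with the low mitochondrial share.

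SLC2A1 moved in different directions in batch 2: relative to the other batches of its group its log2 CPM was higher in FL (0.37) and cIDR (0.33), above all 3 other libraries of the group, and lower in NCTAD (−0.43), below all 3. This difference between groups was not tested on its own.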

How the results depend on the processing

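No member was called by edgeR with group as the only term, and the replicate block raised edgeR's count to 2 of 10 in NCTAD against WT and to 2 in cIDR against WT. DESeq2 gave 1 in NCTAD against WT, and DESeq2 with the block gave 1 in FL, 2 in NCTAD and 4 in cIDR against WT and 1 in cIDR against FL. Other size factors, both other filters, limma on TPM and the fit of 8 libraries kept each of the 6 counts at 0, and the block changed no other call. With 1 library or 1 batch left out, in either model, the counts ran from 0 to 1 in FL against WT, 0 to 3 in NCTAD against WT, 0 to 3 in cIDR against WT and 0 to 1 in cIDR against FL. The share of all genes called moved as well. For NCTAD against WT with group alone it was 0.0256% over all libraries and 0.204% without batch 2. These ranges describe the fits and are not read as a result about the members. For batch 2 the count was 6 in all alternatives and leave-outs except 4 with at least 10 counts in every library, where CA9 and CA12 were not tested, and 7 in 2 leave-outs. Among the log2 fold changes given between groups by the naming rule, those whose sign turned in a leave-out ran from −0.098 to 0.68 (HK2, FL against WT), −0.097 to 0.65 (HK2, NCTAD against WT), −0.067 to 0.83 (HK2, cIDR against WT), −0.048 to 0.79 (SLC2A3, NCTAD against WT) and −0.014 to 0.81 (SLC2A3, cIDR against NCTAD). Each turned without the construct's batch 2 library in the fit with group alone, which gave these ranges. In the blocked leave-outs they ran, in the same order, from 0.23 to 0.37, 0.21 to 0.33, 0.28 to 0.49, 0.30 to 0.43 and 0.34 to 0.48. Over all 60 values of members and comparisons, leaving out batch 2 turned 8 signs with group alone and 8 with the block, none of a called value; they include SLC2A3 in FL against WT (0.37 to −0.062 with group alone), CA9 in cIDR against WT (0.10 to −0.092 with the block), and with group alone CA9 in FL against WT (0.016 to −0.45), CA12 in cIDR against FL (−0.32 to 0.45) and SLC16A3 in NCTAD against FL (−0.35 to 0.33). For batch 2 against the others they ran from −0.062 to 0.20 (SLC2A1), −0.044 to 0.0014 (HK1) and −0.087 to 0.031 (LDHB), none called. HK1 in batch 2 was also above 0 at 0.00399 with at least 10 counts, and at 0.048 and 0.049 with limma (pseudocounts 1 and 0.1), and LDHB at 0.026 with both; the cause was not tested. The interaction could not be fitted without WT replicate 2 or without batch 2. Depth limits CA9, CA12 and SLC16A3 most.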
